A study of Arabidopsis thaliana with 9 samples.

Results

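GRF1 and GRF3 belong to the growth-regulating factors (GRFs), a plant family of transcription factors that bind DNA through a WRC domain and GIF coactivators through a QLQ domain. They are best known for keeping cells dividing in young leaves, and the microRNA miR396 represses most of them. Described here are the places in and beside genes where GRF1 was found by chromatin immunoprecipitation sequencing (ChIP-seq) and GRF3 was not. In ChIP-seq an antibody pulls down a tagged protein together with the DNA it sits on, and a peak is a stretch where reads of that DNA pile up.

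The regions come from 3 libraries of 35S:GRF1-GFP plants and 3 of 35S:GRF3-GFP plants. Another group, 3 libraries of 35S:GFP plants, was not analysed here. All were whole plants of Arabidopsis thaliana strain Ws, 2 weeks old and grown on MS medium, and the antibody was against GFP in every group. The 35S promoter drives each tagged protein at a high level in most tissues, so binding of a factor in its own cells and at its own level was not measured. The plants were grown in blocks with 3 replications, but the labels do not say how many transgenic lines were used or how blocks map to libraries, so a p-value over libraries measures only the spread between these libraries.

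Peaks of the 3 GRF1 libraries that touched by 1 bp or more were joined, and a joined stretch backed by 2 or 3 libraries is a GRF1 consensus region. Of 1147 such regions, 460 overlapped none of the 2203 GRF3 consensus regions and had their summit, the highest point, in a protein-coding gene or at most 1 kb from one. These 460 regions are the subject here. They were chosen by the presence of peaks in the GRF1 libraries, the absence of a GRF3 consensus region and the distance to a gene, so these 3 properties are descriptions and were not tested. For comparison, 174 GRF1 regions in or beside genes overlapped a GRF3 region (the shared regions), and 1003 GRF3 regions in or beside genes overlapped no GRF1 region (the GRF3-only regions). The GRF1 lists held 1122 to 1878 peaks and the GRF3 lists 2258 to 5944. No list gives read counts, so sequencing depth is unknown. Positions are those of the files (TAIR10), and "fold" is the authors' enrichment of a peak over its control.

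At the limit of 1 kb, the last region taken in lay 946 bp from AT1G49930 (chromosome 1, 18486513 to 18486787), with folds of 18.2, 9.79 and 16.7 in GRF1 replicates 1, 2 and 3. The first one left out lay 1001.5 bp from AT1G36756 (chromosome 1, 13915943 to 13916525), with folds of 2.04 in replicate 1 and 1.76 in replicate 3.

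The GRF1-only regions lay mostly just outside genes. The summit was inside the gene span in 192 of 460 regions (41.7%, 95% exact binomial interval 37.2 to 46.4, counting error only) and outside it in 268 (58.3%). Among shared regions 111 of 174 summits were inside (63.8%), and among GRF3-only regions 646 of 1003 (64.4%). These shares are over regions, which are not replicates, and their difference was not tested. All 5 chromosomes carried GRF1-only regions, from 72 on chromosome 4 to 133 on chromosome 1 (28.9% of them, against 26.1% of protein-coding genes).

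In 324 of 460 regions (70.4%, 95% exact binomial interval 66.0 to 74.6) all 3 GRF1 libraries had a peak. With peaks of at least 4-fold only, the share was 29.9% of 288 regions, so recurrence in every library depends on that limit. The other regions were in replicates 2 and 3 (58 regions), 1 and 3 (52) or 1 and 2 (26). Replicate 1 held 402 of the regions, replicate 2 held 408 and replicate 3 held 434. The shared regions were in all 3 GRF1 libraries in 136 of 174 cases (78.2%).

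The peaks came in 2 shapes. A region was called narrow when its median peak width was under 300 bp and its summit lay in the outer 25% of the peak on either side, and broad otherwise. Both limits were set after the values were seen. By this rule 127 regions (27.6%) were narrow and 333 (72.4%) broad. Narrow regions had a median peak width of 260 bp with the summit 28 bp from the nearer edge, and broad regions 344 bp with the summit 142 bp from it. In 126 of the 127 narrow regions the summit was at the edge with the lower coordinate. Their edges lay at nearly the same base in each library: the start differed by a median of 1 bp and the end by 12 bp, against 38 and 51 bp in broad regions. Near the limits lay 98 regions with a width within 25 bp of 300, of which 9 were narrow, and 33 with a summit 20 to 30% into the peak.

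**Figure D1:**
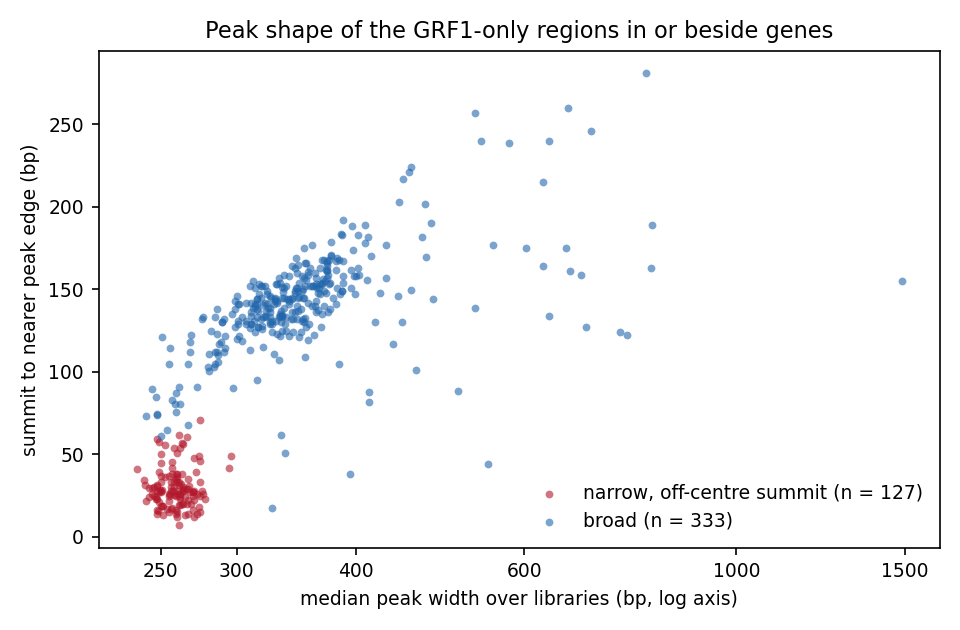
Each point is a GRF1-only region in or beside a gene, with median peak width over libraries (bp, log axis) on the x axis and the distance from summit to the nearer peak edge (bp) on the y axis. The 127 narrow regions (red) form a group around 260 bp wide and 28 bp from an edge, apart from most of the 333 broad regions (blue), whose summits sit around 142 bp from an edge.

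Narrow shape was not limited to the GRF1-only regions. It was found in 77 of 174 shared regions (44.3%), all 77 with the summit toward the lower coordinate, and in 60 of 1003 GRF3-only regions (5.98%), 43 of them toward the lower coordinate.

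Among the GRF1-only regions, narrow ones had the higher and more varied folds. Their median folds in GRF1 replicates 1, 2 and 3 were 6.92, 6.83 and 9.87, against 3.08, 5.86 and 4.07 in broad regions. The narrow regions were higher in 3 of 3 libraries, by 3.84, 0.97 and 5.80, a mean difference of 3.54 ± 2.43 (SD, n = 3 libraries; exact sign-flip permutation test, two-sided, p = 0.25, the smallest that 3 libraries allow). The difference was thus smallest in replicate 2. The middle 80% of narrow folds ran from 3.56 to 13.8 in replicate 1, from 3.82 to 12.7 in replicate 2 and from 4.96 to 18.99 in replicate 3. In broad regions the same share ran from 2.45 to 3.79, from 4.52 to 6.90 and from 3.27 to 5.25. Most broad regions thus kept to a small range of folds within each library. In shared regions the narrow medians were also higher, at 19.05, 16.61 and 23.84 in GRF1 replicates 1, 2 and 3 against 2.891, 5.415 and 3.832. GRF3-only narrow regions had the lower medians, at 2.563, 2.308 and 2.248 in GRF3 replicates 1, 2 and 3 against 2.975, 4.38 and 3.029.

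The order of the libraries also split by shape. Of the narrow regions present in all 3 libraries, 63 of 68 had their highest fold in replicate 3, against 11 of 256 broad ones. The order of replicate 2, then replicate 3, then replicate 1 was found in 2 of these 68 narrow and 236 of these 256 broad regions. The fold in replicate 2 was a median of 0.924 times that in replicate 1 in narrow regions and 1.93 times in broad ones. Replicate 3 was 1.41 times replicate 1 in narrow and 1.31 times in broad regions. The ratio to replicate 1 thus differed by shape mainly in replicate 2, where the median folds of the shapes lay closest. Among all peaks of a list the median fold was 4.52 in replicate 2, against 2.43 and 2.60 in replicates 1 and 3.

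**Figure D2:**
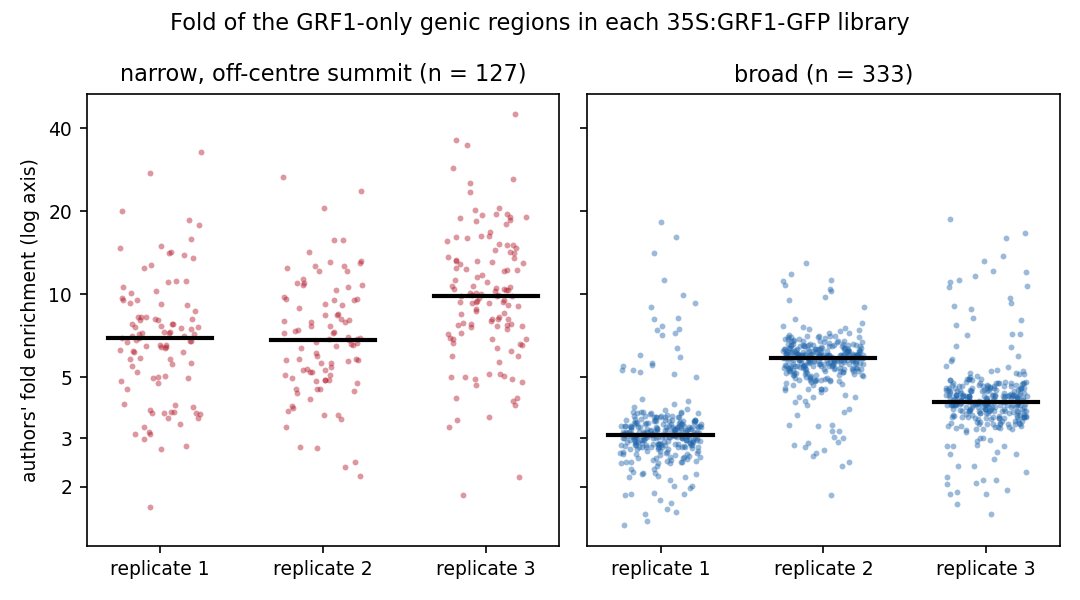
The authors' fold (log axis) of every GRF1-only genic region in each of the 3 35S:GRF1-GFP libraries, narrow regions on the left and broad regions on the right. Points are regions with a peak in that library, spread sideways for sight only, and black lines are medians (6.92, 6.83 and 9.87 for narrow; 3.08, 5.86 and 4.07 for broad). Broad regions form a tight band at a different height in each library.

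Position relative to genes followed shape as well. Of the narrow regions 79 of 127 had the summit inside a gene (62.2%), and of the broad regions 113 of 333 (33.9%). Outside genes, 31 of 48 narrow summits lay within 320 bp of the gene span and 10 in the next 320 bp, with a median distance of 234 bp. Of the 220 broad summits outside genes, 200 lay within 320 bp and 10 in the next 320 bp, with a median of 244 bp. Broad summits thus kept closer to genes as a share, at a similar median distance. Gene spans came from the TAIR10.1 assembly and carry no strand, so upstream and downstream cannot be told apart.

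A band 280 to 310 bp outside the gene span held 59 of the 268 outside summits (22.0%), 55 of them broad. The share was 11 of 63 (17.5%) in shared regions and 102 of 357 (28.6%) in GRF3-only regions. In the GRF1-only band the median folds were 3.08, 5.79 and 4.13 in replicates 1, 2 and 3, against 3.20, 5.995 and 4.30 in the other outside regions. In the GRF3-only band the median folds in the GRF3 libraries were 7.76, 8.10 and 9.74. The band was thus present for both factors. Folds come from separate lists, and a ratio between factors was not computed.

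**Figure D3:**
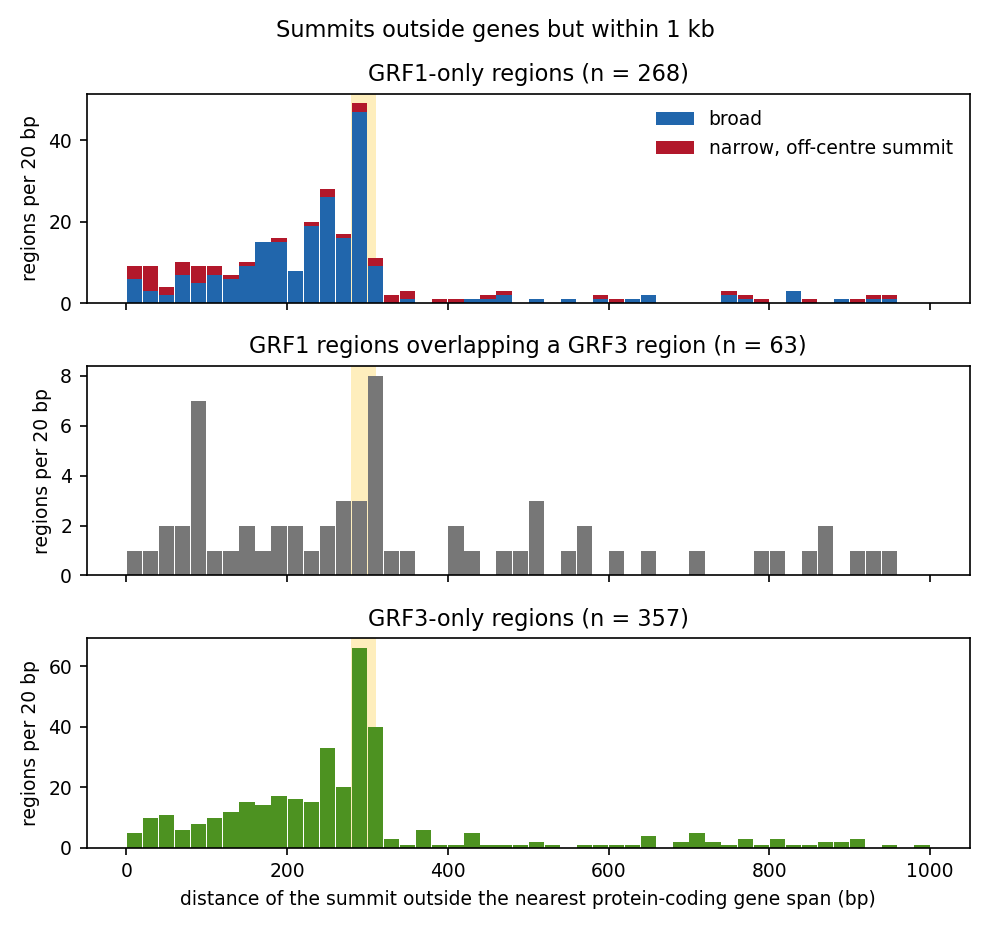
Number of summits per 20 bp against their distance outside the nearest protein-coding gene span (bp), for GRF1-only regions (top, broad in blue and narrow in red), shared regions (middle) and GRF3-only regions (bottom). Shading marks 280 to 310 bp. Counts in the top and bottom panels are highest at 280 to 300 bp and drop beyond 320 bp.

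Summits inside genes also kept near the ends. The median distance to the nearer end of the gene was 220 bp for GRF1-only regions, 406.5 bp for shared and 544 bp for GRF3-only regions. Within 500 bp of an end lay 142 of 192 GRF1-only summits, 58 of 111 shared and 289 of 646 GRF3-only ones. By shape the median was 381 bp for narrow and 173 bp for broad GRF1-only summits.

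The fold inside and outside genes did not differ beyond the spread between libraries. Inside and outside medians were 3.47 and 3.16 in replicate 1, 5.83 and 5.93 in replicate 2, and 4.77 and 4.26 in replicate 3. The mean difference, 0.24 ± 0.31 (SD, n = 3 libraries), did not pass an exact sign-flip permutation test (two-sided, p = 0.5), which with 3 libraries cannot go below 0.25. Among broad regions alone it was -0.082, and with peaks of at least 4-fold 1.16, so neither its sign nor its size was stable.

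Neighbouring pairs were mostly broad. Of the 127 narrow regions 2 (1.57%) lay within 5 kb of another narrow region, in 1 pair. Of the 333 broad regions 77 (23.1%) lay within 5 kb of another broad region, in 39 pairs a median of 2722 bp apart. In 30 of the 39 broad pairs both summits belonged to a common gene, and the pairs touched 31 genes, since 1 pair lay beside 3 genes and GRF1 itself held 2 overlapping pairs. Counting each gene with each of its pairs gave 32 cases. In 28 of them the summits lay on either side of the gene's midpoint, and in 16 each summit was within 320 bp of its own end of the gene. Folds within a pair were close. Over 92 comparisons in the same library, counted by these cases, the higher was a median of 1.16 times the lower, and at most 2.95 times. The pair beside 3 genes thus entered these comparisons once for each gene.

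Except for CINV1, the paired examples below share what broad regions had as a class, a similar fold within a library and a place near gene ends. No source used here gives the control behind the folds. What part these traits or the control have in the values at single genes was not tested. CYCB2;2, a B-type cyclin gene for the G2 to mitosis step, had such a pair. Its left region (chromosome 4, 16901176 to 16901555, 272 bp outside the gene) had folds of 3.29, 5.94 and 4.44 in GRF1 replicates 1, 2 and 3. The right region (16903602 to 16903983, inside the gene, 244 bp from its other end) had folds of 3.28, 6.01 and 4.29. Within each library the 2 regions were nearly equal. At PSKR2, a receptor gene for the growth peptide phytosulfokine, the left region lay 19 bp outside the gene (chromosome 5, 21876408 to 21876795), with folds of 3.12, 6.08 and 4.26. The right region (21880153 to 21880541), inside the gene and 225 bp from its other end, had 3.07, 5.81 and 3.64. GAUT11, of a family of pectin-building galacturonosyltransferases, had regions 207 and 14.5 bp beyond its ends, at folds of 3.29, 5.71 and 4.19 for the left and 5.53 and 3.70 in replicates 2 and 3 for the right. At CINV1, a cytosolic invertase gene that cleaves sucrose, the regions were 733 bp apart in the gene and unlike each other. The first had folds of 5.55, 9.52 and 11.1, and the second, 1488 bp wide, had 1.88, 5.10 and 6.44. Each overlapped a GRF3 peak, the first in GRF3 replicate 3 at 3.64 and the second in GRF3 replicate 1 at 2.85.

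The 12 regions of highest rank were all narrow, with the summit 16 to 38 bp from an edge. Reads were not analysed here, so what part this shape has in the height of their folds was not tested. The 12 regions in all 3 libraries with the highest mean rank of fold had mean folds between 14.5 and 34.7, and every one was highest in replicate 3. Of these, 5 lay inside and 7 outside genes. AT1G51410 carried the highest, inside the gene (chromosome 1, 19061494 to 19061770), with folds of 32.7, 26.6 and 44.96 (34.7 ± 9.4, SD, n = 3). AT3G23270 followed, also inside (chromosome 3, 8316559 to 8316841), with 27.6, 23.7 and 34.6 (28.6 ± 5.5, SD, n = 3). Both regions overlapped a peak of GRF3 replicate 1, at 8.77 and 7.85 in the same order of genes.

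Beside SAG13, a gene that marks senescing leaves, a region 598 bp away (chromosome 2, 12600289 to 12600569) had folds of 15.9, 20.5 and 36.2. Inside UMAMIT23, of an amino acid exporter family, the region (chromosome 1, 25552231 to 25552502) had 20.1, 15.7 and 28.7. IPT7, which makes the first intermediate of cytokinin synthesis, had a region 841 bp away (chromosome 3, 8487832 to 8488105) with 17.8, 14.2 and 25.3. In UMAMIT23 and IPT7 replicate 2 was lowest, while at SAG13 replicate 1 was. The UMAMIT23 and IPT7 regions overlapped peaks of GRF3 replicate 1 at 9.18 and 9.59, and the SAG13 region a peak of GRF3 replicate 3 at 5.25. Between the neighbouring receptor-like protein genes RLP32 and RLP33, 30 bp from one and 71 bp from the other, a region (chromosome 3, 1648744 to 1649014) had 11.1, 13.0 and 23.5. The others lay at or near AT2G31040, AT1G68440, AT3G32280, AT1G53930, AT4G28080 and AT4G13577.

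**Figure D4:**
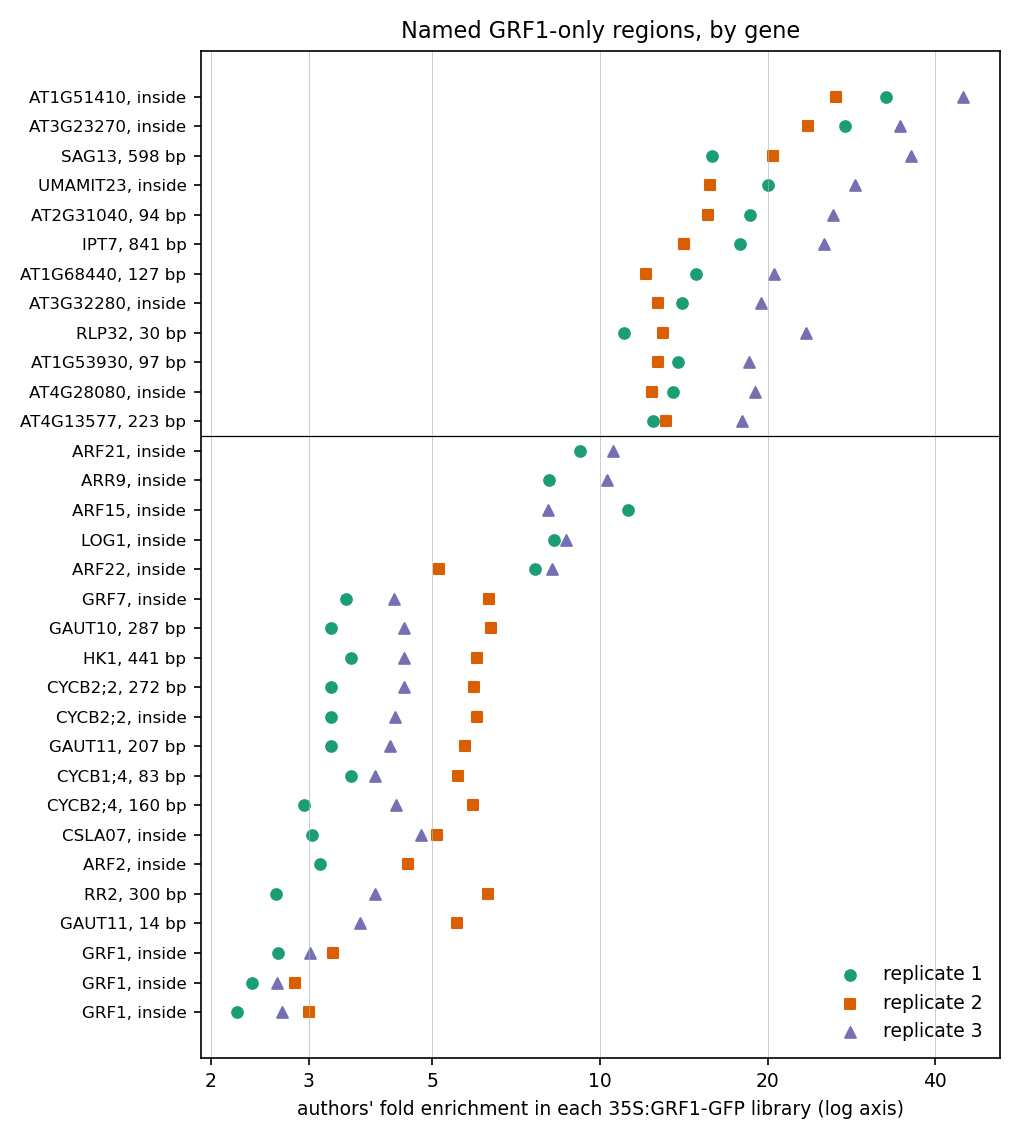
The authors' fold (log axis) in each of the 3 35S:GRF1-GFP libraries for the 12 highest-ranked GRF1-only regions (above the line) and for those at genes of the GRF, cytokinin, cell cycle, auxin response factor and cell wall lists (below it), each with its place relative to the gene named. All 12 above the line were highest in replicate 3, and regions at the cyclin genes, GAUT10 and RR2 were highest in replicate 2.

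Absence of GRF3 was not complete in single libraries. Of the 460 regions, 382 (83.0%) overlapped no peak of any GRF3 library and 78 (17.0%, 95% exact binomial interval 13.6 to 20.7) overlapped a peak of 1 GRF3 library. These peaks came from GRF3 replicate 1 in 32 cases, replicate 2 in 4 and replicate 3 in 42. By shape, 40 of 127 narrow regions (31.5%) and 38 of 333 broad ones (11.4%) had one. The narrow ones were mostly in GRF3 replicate 1 (28 regions) and the broad ones in GRF3 replicate 3 (31 regions). Of the 12 highest-ranked regions, 9 had a GRF3 peak, 8 in GRF3 replicate 1 and 1 in replicate 3.

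At some regions the single GRF3 peak was higher than any GRF1 fold, each fold being relative to its own list's control. At AT1G20290 (chromosome 1, 7024970 to 7025341) the GRF1 folds were 5.20, 4.90 and 3.89, and GRF3 replicate 3 had 56.1. Inside HSF1, a master heat shock factor gene (chromosome 4, 9870033 to 9870292), the GRF1 folds were 7.80, 9.51 and 9.37, and GRF3 replicate 3 had 35.5. At AT4G00880, AT2G01690 and GT18 the GRF1 folds were at most 6.97, and GRF3 replicate 3 had 13.9, 13.4 and 12.3 in the same order of genes. At 6 regions the GRF3 fold was 10 or more, and the median over all such peaks was 4.21. "GRF1-only" thus holds for the consensus of 2 libraries and not for every library.

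The 460 regions fell to 643 genes, 2.34% of the 27444 protein-coding genes, because 184 regions had 2 genes within reach and 17 had 3. Of the 643 genes, 39 (6.07%) also had a GRF3 consensus summit inside or within 1 kb, against 5.52% of all protein-coding genes. The regions were chosen to overlap no GRF3 consensus region, so this share is partly set by the rule and was not tested. Seen from the 1514 genes with a GRF3 summit, these 39 were 2.58%. A GRF3 consensus region lay within 1 kb of the edges of 9 regions (1.96%), a count limited by the same rule. The 187 genes with a summit inside had a median length of 2891 bp, against 2078 bp for all protein-coding genes. Longer spans are more likely to hold a summit by this definition, and what part that has in the difference was not tested.

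Against that background of 2.34%, 45 of 1732 genes in 21 lists (2.60%) had a GRF1-only region. The lists were not tested. In the GRF family, 2 of 9 growth-regulating factor genes had a region, GRF1 and GRF7, and none of the 3 GIF genes listed. Another 12 genes that carry the GRF symbol encode 14-3-3 proteins, a different family, and none had a region. Inside the GRF1 gene (AT2G22840, chromosome 2) were 3 regions with mean folds of 2.64 ± 0.39, 2.99 ± 0.34 and 2.61 ± 0.23 (SD, n = 3 libraries each). They were among the lowest-ranked of the named regions, and DNA of the transgene and of the gene itself cannot be told apart there. GRF3 replicate 3 had a peak at 2 of the 3, at folds of 2.345 and 1.93. Inside GRF7 (AT5G53660, chromosome 5, 21794074 to 21794452) the folds were 3.50, 6.31 and 4.27, the order seen in most broad regions.

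Of the cytokinin list 5 of 72 genes (6.94%) had a region. IPT7 is given above. LOG1, which releases active cytokinin, had a narrow region inside the gene (chromosome 2, 12084575 to 12084830) with folds of 8.28 in replicate 1 and 8.70 in replicate 3. ARR9, an A-type response regulator that dampens cytokinin signalling, had one inside (chromosome 3, 21110393 to 21110642) with 8.11 and 10.3 in the same libraries. Replicate 2 had no peak in either region. RR2, a B-type response regulator that activates cytokinin targets, had a broad region 300 bp away (chromosome 4, 9112213 to 9112619) with 2.62, 6.31 and 3.95. HK1, matched by its histidine kinase symbol and known as an osmosensor, is counted among these 5. It lay 441 bp from a region nearer to ARAC1 (149 bp).

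Cell cycle genes with a region were 3 of 54 (5.56%), all of them B-type cyclin genes. Beside CYCB2;2 (above) these were CYCB1;4, with a region 83 bp away (chromosome 2, 11400885 to 11401243) and folds of 3.58, 5.56 and 3.95, and CYCB2;4, with a region 160 bp away (chromosome 1, 28630784 to 28631172) and folds of 2.94, 5.91 and 4.30. The 4 cyclin regions had mean folds from 4.36 to 4.55, all broad and highest in replicate 2. At CYCB2;4 the region also lay 274 bp from FRS4.

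Auxin response genes with a region were 4 of 67 (5.97%) when matched by symbol, and these 4 were auxin response factors, which bind promoters of auxin-regulated genes. Matched by synonyms as well they were 7 of 143 (4.90%), the added genes being WES1, AT4G00880 and AT4G38825. The region near WES1 overlapped a peak of GRF3 replicate 3 at 7.55. ARF2, a repressor known for restraining organ size, had a broad region inside the gene (chromosome 5, 24910179 to 24910606) with folds of 3.14 in replicate 1 and 4.52 in replicate 2, and GRF3 replicate 3 had a peak there at 7.28. ARF15, ARF21 and ARF22 belong to a group of close copies on chromosome 1, where reads may not be placed with certainty. Their folds inside the genes were 11.2 and 8.08 in replicates 1 and 3 at ARF15, 9.20 and 10.6 in the same libraries at ARF21, and 7.64, 5.14 and 8.20 in all 3 at ARF22.

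Receptor-like kinases and proteins named CRK, RLK, RLP, WAK, LECRK or PRK had 5 of 123 genes with a region (4.07%): RLP26, RLP32, RLP33, CRK26 and RLK1. Matched by synonyms as well the count was 6 of 172 (3.49%), the added gene being AT1G15530. Receptors with other names, such as PSKR2 (above), were not in this list. The cation exchanger list had 2 of 39 genes with a region (5.13%), ATCHX5 and NHX6. ATCHX5 lay 730 bp from a region nearer to CHX6A. CHX6A carries the CHX name but was not matched by the list, so the count holds for the list only. It lay 232 bp from that region, which had folds of 3.20, 5.79 and 4.19 in replicates 1, 2 and 3. NHX6, an endosomal sodium and proton exchanger, lay 269 bp from a region with folds of 4.72 and 3.16 in replicates 2 and 3. MYB genes had 4 of 122 (3.28%), among them MYB94, an activator of cuticle wax synthesis, with a narrow region 33 bp away (chromosome 3, 17541282 to 17541550) at 14.2, 9.58 and 16.3. Its fold was lowest in replicate 2, and a peak of GRF3 replicate 1 lay there at 5.71. The other MYB genes were MYB23, which promotes trichomes, at 4.09 and 5.07 in replicates 1 and 3, MYB77 at 1.99 and 3.83 in replicates 1 and 2, and MYB3R2, 668 bp from a region nearer to AT4G00530. At MYB77 a peak of GRF3 replicate 3 overlapped the region at 3.42. Matched by synonyms as well MYB genes were 5 of 133 (3.76%), the added gene being PC-MYB1. It had a narrow region inside at 6.41, 4.84 and 7.66, where GRF3 replicate 3 had a peak at 3.53.

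WRKY genes had 2 of 67 (2.99%). WRKY57 held a narrow region inside the gene with folds of 7.16, 3.52 and 4.90, and WRKY28 a broad one 822.5 bp away with 2.45 and 5.04 in replicates 1 and 2. The WRKY57 region overlapped a peak of GRF3 replicate 1 at 3.56, and the WRKY28 region a peak of GRF3 replicate 3 at 7.09. MADS-box genes had 2 of 77 (2.60%), and 4 of 98 (4.08%) with synonyms, which added SEP4 and AT5G37420. The flowering repressor AGL31 carried a narrow region inside (chromosome 5, 25982276 to 25982541) with 6.92, 7.98 and 12.2. AGL8, the fruit development gene also called FRUITFULL, lay 667 bp from a narrow region inside RLK1 with 9.71, 8.46 and 11.5. Of the bZIP list 1 of 37 genes had a region (2.70%), bZIP6, 551 bp from a region inside GRF1. The NAC list had 1 of 81 (1.23%), NAC067, and with synonyms 2 of 100 (2.0%), the added gene being ATAF1.

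Cytochrome P450 genes had 5 of 219 (2.28%), close to the background. The neighbours CYP98A8 and CYP98A9, which act on phenolic conjugates in pollen, had a broad region 286 bp from CYP98A9 (chromosome 1, 28015516 to 28015985) with folds of 5.28, 11.3 and 7.71. A second region 171 bp from CYP98A8 (28012841 to 28013236) had 3.20, 6.31 and 4.93. The first was above the second in each library. CYP79F1, which starts the synthesis of glucosinolates from methionine, had a region 170 bp away with 3.12, 5.42 and 3.76. CYP705A13 and CYP96A13 were the others matched by symbol. With synonyms the count was 6 of 234 (2.56%), the added gene being LUT1.

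Cell wall genes had 3 of 122 (2.46%), GAUT11 (above), GAUT10 with a region 287 bp away at 3.29, 6.38 and 4.44, and CSLA07, a glucomannan synthase gene, with a region inside at 3.03, 5.09 and 4.77. Glycosyltransferases of the UGT family had 1 of 58 (1.72%), UGT84A2, which forms sinapoyl glucose, at 7.78, 7.30 and 10.7. Small secreted peptide genes had 3 of 184 (1.63%), LCR7, LCR11 and LCR85, and embryo-defective genes 2 of 160 (1.25%), EMB2279 and EMB2771. At UGT84A2 and LCR7 the regions overlapped peaks of GRF3 replicate 1, at 2.235 and 5.99. No gene with a region was found on the lists of 124 ABC transporter, 56 nutrient transport, 18 histone and 17 clock genes, also with synonyms. Genes of these kinds under names that the lists do not match were not counted, so this holds for the lists only. Of the auxin transport list 0 of 11 genes had one by symbol and 1 of 19 with synonyms, AT5G65980, at folds of 3.56 and 3.49 in replicates 1 and 3. These lists are small, and with a background of 2.34% the count in most of them rests on 1 to 5 genes.

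With peaks of at least 4-fold only, the GRF1-only regions numbered 288 and their genes 405. With genes up to 3 kb away the genes numbered 1079.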

How the data were processed

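ChIP-seq peak lists of 6 libraries were used, 3 of 35S:GRF1-GFP and 3 of 35S:GRF3-GFP plants. Per the submitters' processing notes, FastQC, Trimmomatic, Bowtie2 and MACS2 and the build TAIR10 were used; no source used here gives their versions, settings or control. Lists were deposited per library. The deposited columns give for each peak a score, a fold enrichment (a ratio), −log10 p and q values, and a summit position; the authors' values were used to describe and rank peaks within a list. Fold is relative to each list's own control, so it is not a level of binding comparable between lists.

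Consensus regions were runs of peaks overlapping by 1 bp in at least 2 libraries. In a library with several peaks in a region, the widest gave its fold and summit, and the region's summit is the median. Gene spans and names came from RefSeq (assembly TAIR10.1, strain Columbia), with no strand, exons or UTRs; none of its coordinates is printed, and distances assume equal coordinates in both versions. No sequence was used here, so no motif or promoter is shown. The code was tested on simulated peaks. Medians per library were compared with exact sign-flip permutation tests in scipy 1.17.1 (Python 3.11.15, numpy 2.4.6; figures in matplotlib 3.10.9). Depth is unknown, and intervals cover counting error only.

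The members and gene lists were chosen with earlier results of these data known. Lists were matched on gene symbols. Named were the 12 highest-ranked regions in all 3 libraries, regions at list genes, examples of genes with several regions, and those at the 1 kb limit. Genes in the closing section, AT1G20290 and HSF1 were chosen after their values were seen.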

Additional observations from a re-analysis of the deposited data

How the results depend on the processing

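Of 159 values under alternative settings, 142 were counted as unchanged. For shares this meant a value inside the reported interval. Counts passed within a fixed factor of the reported one. With regions in all 3 GRF1 libraries, 324 regions against 460 and 30 list genes against 45 were thus counted as unchanged. The mean of the median folds had to stay within the SD over libraries. Differences of median fold needed only the same sign. The inside minus outside difference of 1.16 with peaks of at least 4-fold, against 0.24 as reported, was thus counted as unchanged. With peaks of at least 4-fold, the counts were 288 regions and 405 genes, 29.9% of regions were in all 3 libraries, 12.8% had a GRF3 peak, 39.6% were narrow and the mean of the libraries' median folds was 6.34 (4.50 as reported). With regions in all 3 GRF1 libraries, 36.4% were inside genes, 12.3% had a GRF3 peak and 21.0% were narrow. With no peak in any GRF3 library 22.8% were narrow, and with a reciprocal overlap of 50% 22.2% had a GRF3 peak. Genes within 3 kb numbered 1079, of which 78 were in the lists (45 as reported). The inside minus outside difference was -0.082 in broad regions alone (added after seeing the data). The cause was not tested.

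Leaving out each of the 6 libraries gave 350 to 509 regions, 502 to 705 genes, 33 to 53 list genes, 37.4 to 45.6% inside genes, 12.8 to 18.2% with a GRF3 peak, 20 to 23.0% of outside summits 280 to 310 bp away, 18.6 to 31.4% narrow (lowest without GRF1 replicate 3), and differences of median fold of 2.92 to 4.91 (narrow minus broad) and 0.13 to 0.45 (inside minus outside). The share in all 3 GRF1 libraries has no value once a GRF1 library is left out. Symbols and synonyms together matched 55 list genes. The planned promoter motif share was not run.

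No paired analysis was possible because the members were chosen on the difference between the factors, and the tests are differences within GRF1 libraries. Depth, which is unknown, limits how far a missing GRF3 peak can be read as absence.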

Other observations

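The genes below are in none of the lists and were picked by hand from the 643 after their values were seen, so they show nothing about any group of genes. The folds below are the authors', in GRF1 replicates 1, 2 and 3. SYD, a SWI/SNF remodelling ATPase gene, had a region 295 bp away (chromosome 2, 12055749 to 12056144) with 2.46, 6.05 and 4.21. BRM, of the same ATPase family, had one inside the gene with 2.64 and 3.32 in replicates 2 and 3. CMT3, a DNA methyltransferase gene, had one 170 bp away with 3.29, 6.45 and 4.32, and DME, a DNA demethylase gene, one 199 bp away with 3.18, 4.90 and 3.95. SYD, CMT3 and DME shared the order of libraries seen in most broad regions.

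ACS2, of ethylene synthesis, had a narrow region inside the gene at 5.80, 6.51 and 10.1. NCED5, of abscisic acid synthesis, had a broad one 271 bp away at 3.33, 7.12 and 4.32. JAZ3, a repressor of jasmonate signalling, had a broad region 100.5 bp away at 2.67 and 4.05 in GRF1 replicates 1 and 2, and GRF3 replicate 3 had a peak there at 5.53. ATH1, a homeobox gene, had a narrow region 279 bp away at 10.1, 7.94 and 13.5.

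Summits in genes that do not encode proteins were few. Of the 460 regions 17 had one, 9 of them in long noncoding RNA genes, 1 in a tRNA gene and 1 in a microRNA gene.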
